A study of Mus musculus with 12 samples.

Results

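The genes described here are 5 genes of the Wnt pathway in mouse: Axin2, Fzd1, Rnf43, Bcl9l and Ankrd6. They were found by gene name in 8 deposited lists of RNA immunoprecipitation sites, and together held 25 of 4046 listed sites, which merge into 8 of 1548 regions. All 5 were among the 1000 gene names in these lists. They were chosen with earlier results of these data known, so their presence is no finding. Axin2 and Fzd1 carry the Wnt signalling pathway annotation in the deposited lists, and the others carry Wnt terms in the deposited gene ontology columns.

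The libraries came from inner ear organoids, grown from cochlear epithelium of mice at postnatal day 1 to 2. Control organoids (genotype WT in the labels) received a control lentivirus. Rbm25-depleted organoids (genotype Rbm-KO, with Rbm25 knockdown given as the treatment) received a knockdown lentivirus. Each genotype had 2 numbered cultures, each with an IP list (antibody against RBM25) and an IgG list (control antibody), giving 4 groups of 2 lists. Lists are named by genotype, antibody and number, and "depleted" stands for the knockdown. Whether the numbered cultures derive from different animals is not stated, and neither are strain, virus dose or pooling. All cultures were expanded for 8 to 10 days with 3.5 µM CHIR99021, which inhibits the kinase GSK3 and thereby activates Wnt signalling. They were then kept for 7 to 8 days in 3 µM CHIR99021 with 5 µM LY411575, an inhibitor of gamma-secretase, and for 9 to 10 days in low EGF and bFGF. Every group was thus cultured with a Wnt agonist at 2 stages, and no group without one was included.

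In canonical Wnt signalling, a Wnt ligand binds a Frizzled receptor and its LRP co-receptor, which stops a cytoplasmic destruction complex from degrading beta-catenin. Beta-catenin then enters the nucleus and activates transcription with TCF/LEF factors and co-activators. Feedback inhibitors, Axin2 and Rnf43 among them, are themselves induced by the pathway. In the cochlea, Wnt signalling is known for driving proliferation of supporting cell progenitors, which is why CHIR99021 is used to expand such organoids. RBM25 is a nuclear RNA-binding protein that regulates alternative splicing and associates with the U1 small nuclear ribonucleoprotein.

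Across the 8 lists there were between 165 and 813 sites each, and sequencing depth is unknown. Rbm25, the targeted gene, had 2 sites in depleted IP 1 and none in the other 7 lists. These lists give no RNA level, so the knockdown was not checked, and in bulk material fewer cells of a type cannot be told apart from less of an RNA per cell. Of 19 inner ear epithelial, supporting cell and hair cell markers, 4 had a site (Epcam, Sox10, Otog and Barhl1), between 0 and 3 of them in any list. So did 5 of 7 mesenchyme markers (among them Col1a1 and Vim), 0 of 6 glial and neuronal markers and 0 of 4 immune and endothelial markers. Mesenchyme markers with a site numbered 3 in each control IgG list and 0 in each depleted IgG list. In the IP lists they numbered 2 in each control list, 3 in depleted IP 1 and 0 in depleted IP 2, and their part in the results was not tested.

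The value given for a site is the authors' fold enrichment over the background of their peak caller. It belongs to its own list, so folds of different lists are set side by side without a ratio. The score is the authors' −log10 p multiplied by 10. A value of 3100 or more was usual in control IP (78.3% and 79.4% of sites) and in depleted IP (62.2% and 76.4%). It was not usual in control IgG (8.82% and 9.07%) or depleted IgG (5.42% and 5.68%). The false discovery rate is the authors', in percent. With 2 lists a group, the smallest two-sided p of an exact permutation test is 0.333, and no test was made between groups.

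**Figure D1:**
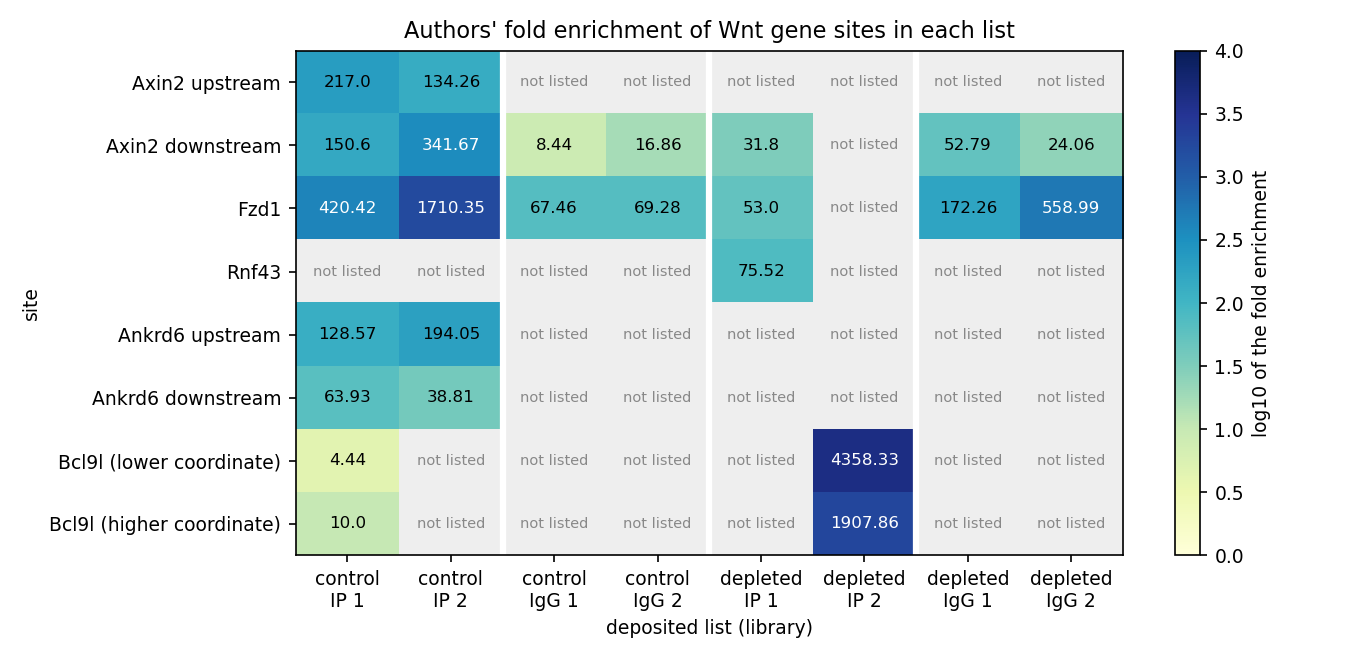
Authors' fold enrichment of each of the 8 sites (rows) in each of the 8 lists (columns), printed in the cell and coloured on a log10 scale, with grey cells for lists that do not hold the site. Axin2 and Ankrd6 sites fill the control IP columns, Fzd1 and the downstream Axin2 site also fill the IgG columns. Rnf43 stands in depleted IP 1 alone, and both Bcl9l sites stand in control IP 1 at low folds and in depleted IP 2 at high folds.

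Fzd1 encodes a Frizzled receptor, the seven-pass membrane protein that binds Wnt ligands. It had a single site, on chromosome 5 between 4754002 and 4754279, in 7 of the 8 lists. The gene (chromosome 5, 4753839 to 4758216, minus strand) is 4378 bp long, and the site lay 163 bp from its 3′ end. In control organoids the fold was 420.42 and 1710.35 in IP 1 and IP 2, and 67.46 and 69.28 in IgG 1 and IgG 2. In depleted organoids it was 53.0 in IP 1, 172.26 in IgG 1 and 558.99 in IgG 2, and depleted IP 2 did not list the site.

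Both control IP folds of Fzd1 were higher than both control IgG folds, so the groups did not overlap. The same held for 96.0% of all regions in the 4 control lists (170 of 177), so it was the usual order. After depletion the order was turned, with the IP fold below the IgG folds. The scores were 3100 in each control IP list against 531.92 and 292.28 with IgG, and 202.46 in depleted IP 1 against 783.09 and 1017.18 in depleted IgG. Within its list, the Fzd1 fold exceeded 61.6% and 83.3% of sites in the control IP lists and 68.1% and 74.0% in those of control IgG. In depleted organoids it exceeded 18.1% of the IP 1 sites but 78.5% and 94.3% of the IgG sites. The false discovery rate was 16.21% and 17.35% with the RBM25 antibody in control organoids and 100% with IgG in both cultures. After depletion it was 82.45% for IP 1, against 37.9% and 32.18% for the IgG lists.

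Rnf43 encodes a membrane ubiquitin ligase that removes Frizzled receptors from the cell surface. It had 1 site, listed in depleted IP 1 alone, on chromosome 11 from 87664325 to 87664585. The fold was 75.52, the score 1191.79 and the false discovery rate 6.28%, and the fold exceeded 23.1% of the sites of that list. This site lay 1238 bp from the start of the gene (chromosome 11, 87663087 to 87735539, plus strand). Regions in depleted IP 1 alone made up 25.8% of the 1548 regions, so this pattern of lists was common.

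Axin2 encodes a scaffold of the destruction complex and is a widely used readout of Wnt activity, because beta-catenin induces it. It had 2 sites on chromosome 11, in the last part of a gene that runs from 108917828 to 108950783 on the plus strand. The upstream site spanned 108949592 to 108949806 and ended 977 bp from the 3′ end of the gene. The downstream site spanned 108950093 to 108950357 and ended 426 bp from it, with 286 bp between them.

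The upstream Axin2 site was listed in both control IP lists and nowhere else, with a fold of 217 in IP 1 and 134.26 in IP 2. These folds exceeded 46.5% and 32.0% of the sites of their lists, and both scores were 3100. The downstream Axin2 site was listed in the same 7 lists as Fzd1. In control organoids its folds were 150.6 and 341.67 with the RBM25 antibody, and 8.44 and 16.86 with IgG. In depleted organoids they were 31.8 for IP 1, and 52.79 and 24.06 with IgG.

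The downstream site of Axin2 was thus another of the 170 regions with higher folds in both control IP lists than in both control IgG lists. In depleted culture 1 the IP fold lay below the IgG fold, as was usual for regions in these lists. In depleted culture 2 only IgG listed the site. The depleted IP 1 fold stood between the 2 depleted IgG folds, unlike that of Fzd1, which stood below both. The scores were 3100 in each control IP list and 96.32 and 249.04 with control IgG. After depletion they were 197.18 for IP 1, and 370.09 and 348.03 with IgG. The stronger of the 2 Axin2 sites was the upstream site in control IP 1 and the downstream site in control IP 2, so the order of the sites differed between the replicates.

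Ankrd6 encodes Diversin, an ankyrin repeat protein that favours beta-catenin degradation and acts in the planar cell polarity branch. It had 2 sites on chromosome 4, both listed in the 2 control IP lists and nowhere else. The gene runs from 32804027 to 32950885 on the minus strand. The upstream site, 32818605 to 32818687, had folds of 128.57 and 194.05 in control IP 1 and IP 2. The downstream site, 32817498 to 32817550, had folds of 63.93 and 38.81.

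The Ankrd6 sites kept their order in both replicates, with the upstream site higher. Their boundaries were identical in the 2 lists, at 83 bp and 53 bp wide. They lay 1054 bp apart, and 14578 and 13471 bp from the 3′ end of a gene of 146859 bp. No Ankrd6 site exceeded 38.1% of the sites of its list by fold, so they ranked in the lower part of both lists.

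Bcl9l encodes a nuclear co-activator that links beta-catenin to Pygopus proteins. It had 2 sites on chromosome 9, in a gene that runs from 44482738 to 44511906. Each was listed in control IP 1 and depleted IP 2 and in none of the other 6 lists. The site at 44483436 to 44483486 had a fold of 4.44 in control IP 1 and 4358.33 in depleted IP 2. At 44500745 the site had a fold of 10 in control IP 1, where it ended at 44501036, and 1907.86 in depleted IP 2, where it ended at 44500853. The lists assign the first to transcript uc009pdu.1 and the second to NM_030256.

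The Bcl9l sites were near the bottom of the control IP 1 list, with folds above 1.68% and 7.74% of its sites, scores of 58.82 and 58.13 and a false discovery rate of 100%. In depleted IP 2 they exceeded 75.2% and 55.2% of the sites, with scores of 3100 and a rate of 25.51%, the lowest rate of that list. Regions in control IP 1 and depleted IP 2 alone were rare, at 0.904% of the 1548 regions (14 regions). A control IP 1 rate of 100% beside a listing in depleted IP 2 was shared more widely. Of 69 regions common to control IP 1 and depleted IP 2, 36 (52.2%) had a control IP 1 rate of 100%. Of these 36, 35 had a depleted IP 2 fold over 1000, a limit chosen after the Bcl9l values were seen. That limit lies below the median fold of all depleted IP 2 sites (1386). A highest control IP 1 fold under 20 was found in 23 of the 36 (63.9%), and 14 (38.9%) were not listed in control IP 2.

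**Figure D2:**
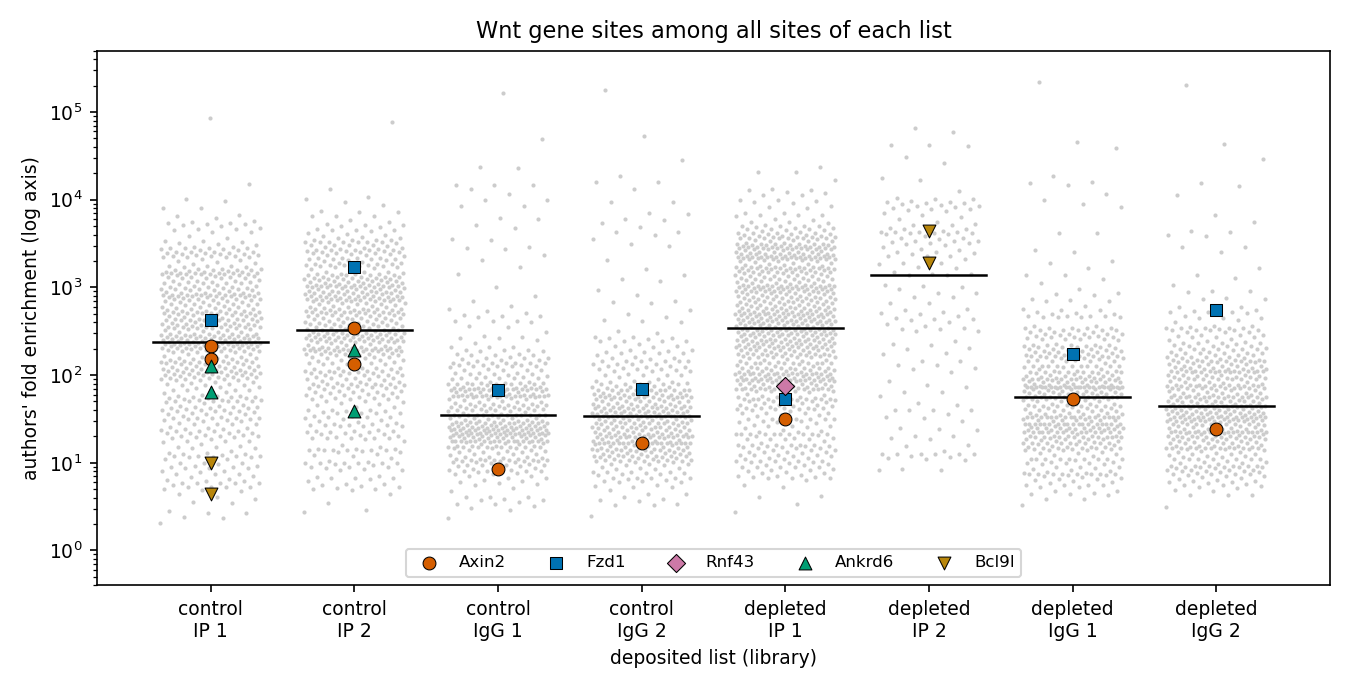
Authors' fold enrichment (log axis) of all sites of each of the 8 lists as grey points, spread sideways for visibility, with the median of each list as a black line and the sites of the 5 genes as coloured symbols. Fzd1 lies above the median of 6 of the 7 lists that hold it and below it in depleted IP 1, and both Bcl9l sites lie far below the median in control IP 1 and above it in depleted IP 2.

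In control organoids, RBM25 antibody against IgG gave 3 of 7 member regions (42.9%) in both IP lists and in neither IgG list: the upstream Axin2 site and both Ankrd6 sites. Over all genes the share was 39.8% (364 of 915 regions), so the members stood close to the background. No member region was in both IgG lists and neither IP list, against 18.9% of all regions. The count of 3 rested on which sites were used. It was 5 without control IP 2, which adds Bcl9l, and 5 with sites of a false discovery rate under 100%, which adds Fzd1 and the downstream Axin2 site and raises the share of all regions to 82.4%. When only sites that reached their list's median fold were used, it was 0.

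Fzd1 and the downstream Axin2 site belong to 112 regions found in exactly the same 7 lists, 7.24% of all regions. In control cultures 1 and 2 the IP fold was above the IgG fold in 109 of these 112 regions each (97.3%). In depleted culture 1 it was above in 4 of 112 (3.57%). The order seen at both Wnt sites, IP above IgG in both control cultures and below it in depleted culture 1, was found in 105 of the 112 regions (93.8%), so it was not particular to the Wnt genes.

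The starts of these sites differed between the lists. The downstream Axin2 site began at 108950093 in both control IP lists and at 108950097 in depleted IP 1 and all 4 IgG lists. The Fzd1 site began at 4754002 in both control IP lists and at 4754006 in depleted IP 1 and all 4 IgG lists. Of the 112 regions, 9 (8.04%) had a start that depleted IP 1 shared with all 4 IgG lists and with no control IP list. That pattern was taken from these 2 sites, so they are among the 9 by construction. In 90 of the 112 regions (80.4%), depleted IP 1 and control IP 1 had the same start. The ends did not follow the same split. The Axin2 site ended at 108950357 in control IP 2 and at 108950355 in the other 6 lists, and the Fzd1 site ended at 4754274 in both control IP lists, 4754279 in the IgG lists and 4754267 in depleted IP 1.

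**Figure D3:**
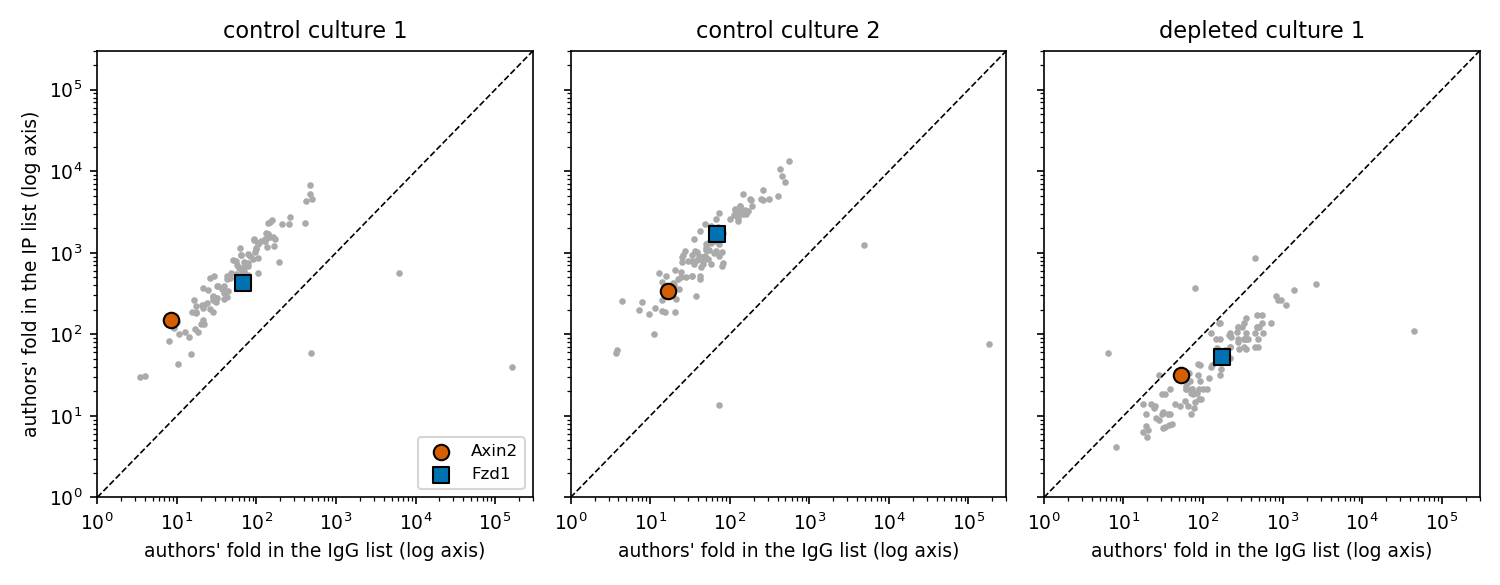
Authors' fold in the IP list (vertical, log axis) against that in the IgG list of the same culture number (horizontal, log axis) for 112 regions listed in both control IP, all 4 IgG and the depleted IP 1 lists, with a dashed line where the folds are equal. Axin2 (its downstream site) and Fzd1 lie within the cloud of regions, above the line in both control cultures and below it in depleted culture 1.

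In depleted organoids no member region was in both IP lists and neither IgG list, or in both IgG lists and neither IP list, out of 5 member regions. Over all genes these shares were 0.266% (3 of 1127 regions) and 12.3%. The depleted IP lists had no member region in common: depleted IP 1 listed Axin2, Fzd1 and Rnf43, and depleted IP 2 listed Bcl9l. Without depleted IP 1 the IP count was 2 (both Bcl9l sites) and the IgG count 2 (Fzd1 and the downstream Axin2 site). Without depleted IP 2 the IP count was 1 (Rnf43). These values were set by single libraries.

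Control IP was then set against depleted IP, using the same control IP lists as above. In both control lists and neither depleted list there were 3 of 8 member regions (37.5%), again the upstream Axin2 site and both Ankrd6 sites, against 27.9% of all regions (384 of 1375). No member region was in both depleted IP lists and neither control IP list, against 0.145% of all regions. The count of 3 became 5 without depleted IP 1, which adds Fzd1 and the downstream Axin2 site. By gene in place of region it was 1 (Ankrd6), since Axin2 had its downstream site in depleted IP 1. Regions in the control IP lists alone, which the upstream Axin2 and both Ankrd6 sites were, made up 17.1% of the 1548 regions.

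Between control and depleted IgG lists the members showed no difference in listing. Both member regions with an IgG site, in Fzd1 and Axin2, were listed in all 4 IgG lists. Over all genes 11.6% of 701 regions were in both control IgG lists alone and 21.0% in both depleted IgG lists alone. With sites of a false discovery rate under 100%, both became regions of the depleted IgG lists alone, as did 64.1% of all regions (209 of 326). That limit removes 84.2% and 86.7% of control IgG sites, against 45.6% and 43.8% of depleted IgG sites.

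The members also differed in position, a feature the choice of genes did not use. Fzd1 and both Axin2 sites lay within 1500 bp of the 3′ end of their gene, as did 19.6% of all regions with a known strand (234 of 1191). The Rnf43 site lay within 1500 bp of the gene start, as did 15.9%. The distance was chosen after the positions were seen. No region in Axin2, Fzd1, Rnf43 or Ankrd6 overlapped a promoter window of these genes in the RefSeq table. Of the 5 genes, 3 had 2 regions, against 39.6% of all genes with 2 or more. The submitters' processing notes name the build mm8, but all 8 member regions lay inside the GRCm38 interval of their gene, as did 97.8% of 1517 regions that could be looked up, so positions are read here as GRCm38. Exon, intron and base content of the sites were not analysed here.

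**Figure D4:**
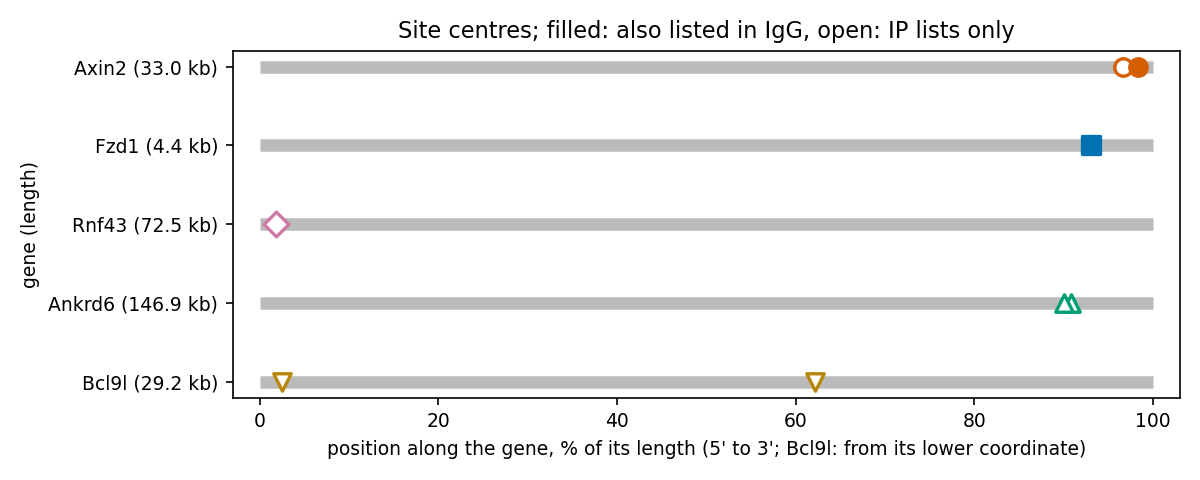
Centre of each of the 8 regions along its gene, in percent of the gene's length from 5′ to 3′ (for Bcl9l, whose strand is not in the table used, from its lower coordinate), with filled symbols for regions also listed in IgG. Fzd1, both Axin2 sites and both Ankrd6 sites stand between 90.0% and 98.3% of the gene's length, whether or not IgG listed them, and Rnf43 stands at 1.89%. The share of all regions in that range of their gene is not given here, so the range is a description of these sites only.

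Genes with the most similar number of sites per list, over the 8 lists, were looked up among 957 named genes. For Fzd1, 48 genes had the same numbers in every list, and Leng1 and Serac1 were nearest by fold. Leng1 had control folds of 844.44 and 1145.95 with the RBM25 antibody and 91.19 and 50.12 with IgG. Its depleted folds were 69.46 for IP 1, and 455.2 and 404.17 with IgG. Only Mta2 had the site numbers of Axin2, with 647.92 in depleted IP 1 against 144.26 in depleted IgG 2 and a lower fold in IgG 1, an order unlike that of Axin2. Next came Tnrc6a, which lacked a depleted IP 1 site (247.5 and 403.46 in control IP). For Ankrd6, 49 genes had the same numbers, with Mybpc1 (118 and 172.69 in control IP) and Sik3 nearest. For Bcl9l it was Fam102a alone, with highest folds of 5 in control IP 1 and 4243.42 in depleted IP 2, followed by Supt6 (6.25 and 7534.38). For Rnf43 it was 121 genes, with P3h1 (74.2) and Sfpq (79.01) nearest.

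Other genes of the pathway were taken from a list of 134 gene names, 129 without the members, and 10 of the 129 had a site. The list holds Tnfrsf19 also under its other name Troy, so its totals count names. Sites by role were counted with the members included and each gene under a single role. They were found in 0 of 38 genes of ligands and ligand handling, 3 of 23 of receptors and their turnover, and 3 of 39 of cytoplasmic transducers. The last role also held genes of membrane proteins of planar polarity, Celsr1 among them. In the nuclear complex it was 7 of 22, and among known targets not counted under another role 2 of 12. The members in these counts were chosen with earlier results known. No share of all annotated genes is given, so the counts do not show that any role was favoured or avoided. Axin2 and Rnf43 are known targets too, but were counted under cytoplasmic transducers and receptors. A region in both control IP lists and neither control IgG list was found in 4 of 6 non-member genes with a site in the control lists, against 42.2% of all genes. These were Ep300, an acetyltransferase co-activator of beta-catenin, Celsr1, a planar polarity cadherin, Id2 and the chromatin remodelling ATPase gene Smarca4. Every control IP site of Smarca4 had a false discovery rate of 100%. A region in both control IP lists and neither depleted IP list was found in 3 of 9 (Celsr1, Ep300 and Ptk7), against 32.2% of all genes, although Celsr1 had another region in depleted IP 1 (89.61). Both shares rest on few genes.

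Ep300, like Ankrd6, had 2 sites in the control IP lists alone, at folds of 236.59 and 58.33 for the first and 195 and 144.26 for the second. Ptk7, a planar polarity co-receptor, was listed like Fzd1 in both control IP lists and all 4 IgG lists. Its 2 sites had folds of 281.67 and 452.5, and 156.5 and 768.18, in control IP. They were between 10.55 and 34.48 in control IgG and between 29.64 and 84.74 in depleted IgG, with no depleted IP site. Ptk7 was the single gene of 8 with a region in both depleted IgG lists and neither depleted IP list, against 15.2% of all genes.

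Smarca4, like Bcl9l, was listed at low folds in control IP and at high folds in depleted IP 2. Its folds were 7.86 and 8.33 at the first site in control IP and 8105.56 in depleted IP 2, and 8.62, 10 and 3656.25 at the second. Of the other genes, 4 were listed in depleted IP 1 alone, as Rnf43 was. The share of 25.8% given above for this pattern counts regions, and no share of genes is given. They were Ctnnbip1, which blocks binding of beta-catenin to TCF (1709.15 and 2239.12), the co-repressor genes Ctbp1 (476.97 at both sites) and Ctbp2 (96.72 and 193.44), and the progenitor transcription factor gene Sox9 (22.47). Another co-repressor gene, Tle3, had 1 site, in control IgG 1 alone (21.98).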

How the data were processed

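Libraries were trimmed with cutadapt 1.9.3 and aligned with HISAT2 2.0.4, both tools named in the submitters' processing notes, with the build mm8. The sites carry MACS peak names in the deposited lists. Its version and background library are not stated. The authors deposited 1 list per library with a fold enrichment (a ratio), a score (−log10 p multiplied by 10), a false discovery rate in percent and a width in bp, per the file headers. Starts count from 0 there and are printed counting from 1.

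From these, rows of the 8 IP and IgG lists were read by gene name with Python 3.11.15. Lists labelled Input were left out by the choice of rows. Sites sharing 1 bp or more were merged into regions, and regions in both lists of a group and neither of another were counted. Merging was tested on simulated lists. Background shares are counts over all regions of the same lists. No test was made between groups, because each fold belongs to its own list and 2 lists a group cannot give a small exact p. Depth is unknown, because the files hold no read counts. Gene intervals, strands and promoter windows came from RefSeq tables of GRCm38.p6, and a strand was taken only where the table gave 1.

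Named genes were the members, listed genes of the Wnt list, Rbm25 and, for each member, the 2 genes nearest in sites per list. Markers with a site were named too, and 6 genes of the deposited pathway annotation were chosen after values were seen. The members and lists were chosen with earlier results of these data known. Alternatives were an overlap of 50% of the shorter site, sites reaching their list's median fold, sites of 100 bp or more, sites with a false discovery rate under 100%, genes in place of regions, and each list left out.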

Additional observations from a re-analysis of the deposited data

Results flagged for a closer look

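The downstream Axin2 site and the Fzd1 site were singled out because the IP list stood above IgG in both control cultures and below it in both depleted cultures, where a site missing from a list is taken as lower. For Axin2 the folds were 150.6 in IP and 8.44 in IgG of control culture 1, 341.67 and 16.86 in control culture 2, 31.8 and 52.79 in depleted culture 1, and no IP site against 24.06 in depleted culture 2. For Fzd1 they were 420.42 and 67.46, 1710.35 and 69.28, 53.0 and 172.26, and no IP site against 558.99. The difference between control and depleted cultures was not tested. Depleted IP 2 held 165 sites, the fewest of the 8 lists, and 105 of 112 regions in the same 7 lists had the same order in the other 3 cultures.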

How the results depend on the processing

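No paired analysis was possible because the counts come from no test to which a block could be added. Folds were set side by side within numbered cultures as a description. Of 72 alternative values over 8 comparisons, 57 stayed within 1.5 times the reported count and 15 did not. Where the reported count was 0, as in most of these comparisons, only another 0 stayed within that limit. The pooled number therefore says little about how stable the counts above 0 were. For control IP against control IgG (3 regions), the count was 0 when sites had to reach their list's median fold, 1 with sites of at least 100 bp, 5 with sites of a false discovery rate under 100%, 1 with genes in place of regions, and 3 to 5 with a list left out. For control IP against depleted IP (3 regions) it was 1 (Fzd1) under the median-fold limit, 1 with sites of at least 100 bp, 1 with genes in place of regions, and 3 to 5 with a list left out. Of the comparisons with a reported count of 0, depleted IgG against depleted IP gave 1 (Fzd1) under the median-fold limit, and 0 to 2 with a list left out. Depleted IP against depleted IgG gave 0 to 2 with a list left out, and depleted IP against control IP 0 to 1. Depleted IgG against control IgG gave 2 with sites of a false discovery rate under 100%. The 2 remaining comparisons, control IgG against control IP and against depleted IgG, gave 0 under every alternative run. The cause of these changes was not tested beyond the sites that each alternative removes. Depth is unknown, so a site missing from a list is not shown to be absent from the library.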

Other observations

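Genes that carry the Wnt signalling pathway annotation in the deposited lists numbered 12 and included 6 that were neither members nor on the list of pathway genes. Tbl1x, a subunit of a co-repressor exchange complex, had 2 sites in the control IP lists alone (159.67 and 240.56, and 266.67 and 217), as had the phospholipase gene Plcb3 (799.17 and 1019.51, and 573.75 and 572.86) and Skp1a, a subunit of SCF ubiquitin ligases (16.2 and 16.04, and 20.81 and 22.55). The ubiquitin ligase gene Siah1b had 1 site, at 2847.85 in depleted IP 1 and 72.83 and 72.13 in the depleted IgG lists, with no site in control lists. Camk2d, a calcium/calmodulin-dependent kinase gene, had 2 sites in depleted IP 1 alone (60.06 and 178.42).

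Senp2, a SUMO protease gene, had sites in all 4 IP lists and in no IgG list. The depleted IP lists shared no Senp2 site with each other or with control IP. Control IP 1 and IP 2 shared a site on chromosome 16 from 22046717 to 22047018 (52.25 and 36.84). Depleted IP 1 had sites starting at 22026653 and 22027969 (137.79 and 196.85), and depleted IP 2 at 22014144 and 22023640 (20 and 45, at a false discovery rate of 100%). These genes were looked up after the values of the members had been seen.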
